A study of Mus musculus with 15 samples.

Results

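Livers of mice given both nitrate and methotrexate (MTX) were compared with control livers across all genes. The comparison used 10 of the 15 RNA-seq libraries of the series, 5 titled MTX+Nit and 5 titled Ctrl, chosen by their sample titles. Of 54532 genes in the deposited count table, 14219 had enough counts to be tested. All mice were labelled wild type, with no strain, sex or age given in the labels used here. MTX+nitrate mice drank water containing 2 mM nitrate for 5 days, received MTX once by intraperitoneal injection at 20 mg/kg on the last of these days, and gave their livers 24 h later. The control label names no vehicle, water or injection, and no label gives the hour of the day at which livers were taken. A further group of 5 libraries received the same dose of MTX without nitrate, and its levels are set beside the others where they help. No group received nitrate alone, so the part of each agent in a difference between MTX+nitrate and control cannot be told apart. Vehicle, injection and hour of the day cannot be told apart from the agents either. No label ties a library to a single mouse, and p-values therefore reflect the spread among libraries, which may be technical. The RNA came from whole liver, in which fewer cells of a type and less RNA per cell cannot be told apart.

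MTX is a folate antagonist that hinders the making of thymidylate and purines, and it is known to injure the liver. Dietary nitrate is reduced in the body to nitrite and nitric oxide. Much of the liver's transcription follows hormones and time. The circadian clock runs on the activators BMAL1 and CLOCK, which bind E-boxes, and on their repressors of the PER, CRY and REV-ERB families. Glucocorticoids act through the receptor encoded by Nr3c1, and glucagon, insulin and bile acids add further control of glucose and sterol genes. Inflammatory cytokines switch on acute phase genes, whose products hepatocytes release into plasma.

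The 10 libraries held 16663967 to 19274497 counts, and the library totals, the number of genes with a count and the share of the 10 most abundant genes had exact permutation p-values of 0.349, 0.643 and 0.77. Levels are CPM (counts divided by the library total after TMM scaling, which sets libraries to a common level by a trimmed mean of their log ratios) and are given as mean ± SD over 5 libraries. Hepatocyte marker genes summed to 105561 to 137605 CPM in control and 105467 to 146336 CPM in MTX+nitrate. The GC measure separated the groups: in each library, expression deviation was correlated over genes with their GC content, and the correlation ran from -0.261 to 0.00366 in control and from 0.0385 to 0.228 in MTX+nitrate, without overlap (exact permutation p = 0.00794, the smallest possible, adjusted p = 0.0635 over 8 measures). Genes do not count as replicates here. Mitochondrially encoded genes took 4.48 ± 0.428% of counts in control and 3.82 ± 0.372% in MTX+nitrate (exact permutation p = 0.0397, adjusted p = 0.159). The part of these measures in the gene differences was followed by a fit with offsets for transcript length and GC content, and a call of a named gene that it ended is marked as such.

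Among 14219 genes, 342 (2.41%) differed in edgeR's quasi-likelihood test between MTX+nitrate and control at an adjusted p under 0.05, which is the call used throughout. Of these, 201 were higher (1.41% of genes tested) and 141 lower (0.992%), and 114 (0.802%) differed by at least 1 on the log2 scale. With the length and GC offsets 216 genes were called, 103 higher and 113 lower, so that the share of higher calls went from 58.8% to 47.7%, and 170 of the 342 genes remained. The number of calls varied with single libraries: it was 99, 300, 130, 187 and 139 without control library 1, 2, 3, 4 or 5, and 312, 141, 174, 132 and 146 without MTX+nitrate library 1, 2, 3, 4 or 5. Protein-coding genes made up 317 of the 342 calls and 12587 of the 14219 genes tested. Groups did not overlap for 740 genes (5.2%), and 2499 (17.6%) had an unadjusted p under 0.05. Against MTX alone, MTX+nitrate gave 613 calls (4.31%) over the same genes. The log2 fold change of all genes tested had a median of 0.01.

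**Figure D1:**
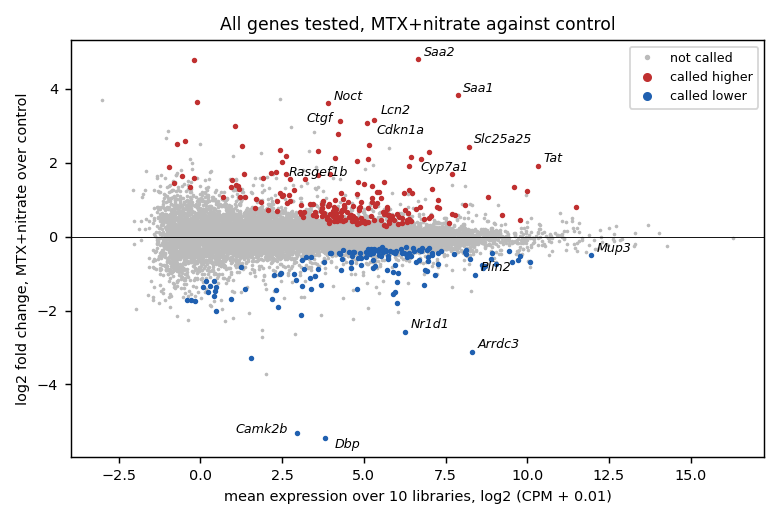
Each point is 1 of the 14219 genes tested, with its mean level over the 10 libraries on the x axis (log2 of CPM + 0.01) and its log2 fold change, MTX+nitrate over control, on the y axis. Red points are the 201 genes called higher and blue points the 141 called lower; Saa2 and Saa1 mark the top of the plot, and Dbp, Camk2b and Arrdc3 the bottom.

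Genes of the circadian clock and its direct outputs differed in both directions. The gene lists, here and below, were chosen with earlier results of these data known. Their shares of calls are therefore descriptions and not tests. Of 13 core clock genes tested, 2 were higher and 3 lower (38.5% against 2.41% of all genes), and of 15 clock output genes 3 were higher and 3 lower (40% of them). Noct and Per1 were among those that rose, and Dbp, Nr1d1 and Nr1d2 among those that fell. Control library 1 had the highest control level of Dbp, Tef, Nr1d1, Nr1d2, Per1, Per3, Noct and Alas1 and the lowest of Nfil3, and without it 2 core clock genes were higher and 1 lower, and 3 clock outputs higher and 2 lower. The log2 changes were then 3.97 for Noct, -4.40 for Dbp and -1.58 for Nr1d2 (adjusted p = 0.000416, 0.0207 and 0.0336). The promoter windows shown first are those of 3 of these genes in which a clock motif was found, chosen from 4. They are RefSeq windows of GRCm38.p6 covering the 250 bases before a start site, in lower case with the motif in capitals. The motifs searched on both strands were the E-box CACGTG, bound by BMAL1 and CLOCK, and the D-box TTATGNAA, bound by DBP, TEF and NFIL3. An E-box stood in 6.02% of 32851 such windows over the genome and a D-box in 3.07%. Of the 11 clock and output genes called, 10 had a window, and an E-box stood in 2 (Per1 and Tef) and a D-box in 3 (Per1, Noct and Per3). A gene counted if any of its windows held the motif, so counts per gene and shares of windows are unlike measures. The Per1 window (+ strand, chr11:69098699-69098948) belongs to 1 of its 2 starts and carries the E-box, with a further D-box in lower case. The Tef window (+ strand, chr15:81802423-81802672) carries the E-box. In the Noct window (+ strand, chr3:51224197-51224446) the D-box lies on the reverse strand. A match of letters is a description and not a site.
Per1: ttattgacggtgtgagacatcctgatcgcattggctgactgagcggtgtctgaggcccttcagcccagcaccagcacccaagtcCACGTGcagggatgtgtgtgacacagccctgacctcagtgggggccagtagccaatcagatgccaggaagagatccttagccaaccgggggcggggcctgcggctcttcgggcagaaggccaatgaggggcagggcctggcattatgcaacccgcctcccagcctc
Tef: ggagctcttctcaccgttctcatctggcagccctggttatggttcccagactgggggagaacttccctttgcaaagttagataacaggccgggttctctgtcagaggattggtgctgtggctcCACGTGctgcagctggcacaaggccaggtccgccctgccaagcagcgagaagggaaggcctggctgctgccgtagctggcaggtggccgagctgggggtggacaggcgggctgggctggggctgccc
Noct: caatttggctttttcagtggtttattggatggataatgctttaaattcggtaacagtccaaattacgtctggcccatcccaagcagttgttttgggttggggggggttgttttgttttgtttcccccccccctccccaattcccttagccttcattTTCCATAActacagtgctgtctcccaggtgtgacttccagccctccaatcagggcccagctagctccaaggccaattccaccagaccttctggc

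Noct, which encodes the rhythmic enzyme nocturnin (ENSMUSG00000023087, chr3:51224447-51251644), was at 4.38, 1.95, 1.16, 1.31 and 2.70 CPM in control libraries 1 to 5. In MTX+nitrate libraries 1 to 5 it was at 20.0, 30.5, 21.4, 39.3 and 28.5 CPM, above every control. The rise was 12.1-fold (log2 3.60 ± 0.41, adjusted p = 0.000418). In MTX alone Noct stood at 3.76 ± 2.28 CPM, which MTX+nitrate also exceeded (adjusted p = 0.00304). Per1, a core clock repressor that glucocorticoids also induce (ENSMUSG00000020893, chr11:69095217-69109960), was at 17.2, 2.84, 2.94, 6.84 and 2.58 CPM in control and at 13.9, 34.0, 31.4, 28.5 and 32.7 CPM in MTX+nitrate. Control library 1 lay above MTX+nitrate library 1, so the groups overlapped, while the other 4 MTX+nitrate libraries stood above all controls. Per1 rose 4.32-fold (log2 2.11 ± 0.48, adjusted p = 0.0327). Of 10 fits leaving out 1 library each, 2 kept it as a call, those without control library 1 or MTX+nitrate library 1, and was lost with the length and GC offsets, with adjusted p-values up to 0.145. Such upper values are the highest over 19 alternative settings, here and for the other genes, and a call said to hold only without a library is one that no other fit leaving out 1 library kept. Against MTX alone, at 4.36 ± 2.57 CPM, Per1 was also higher (adjusted p = 0.0151).

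The REV-ERB repressors fell. Nr1d1 (REV-ERB alpha, ENSMUSG00000020889, chr11:98767932-98775333) was at 174, 119, 126, 147 and 96.8 CPM in control and at 20.9, 14.8, 13.1, 42.2 and 20.4 CPM in MTX+nitrate. The 5 MTX+nitrate libraries lay below all 5 controls, a 5.95-fold fall (log2 -2.57 ± 0.55, adjusted p = 0.0267). In MTX alone it ranged from 11.1 to 143 CPM, so its libraries spanned both groups. Nr1d2 (REV-ERB beta, ENSMUSG00000021775, chr14:18204054-18239127) was at 160.3, 74.6, 87.7, 96.2 and 87.8 CPM in control and 33.3, 26.6, 31.6, 23.0 and 30.1 CPM in MTX+nitrate, again without overlap (3.50-fold lower, log2 -1.81 ± 0.33, adjusted p = 0.0109). Per3, another PER family member, went from 13.7 ± 14.1 CPM to 3.18 ± 1.03 CPM (adjusted p = 0.0372). Control library 1 held 38.9 CPM of it and the other controls 5.56 to 9.41 CPM, and without that library its log2 change went from -2.11 to -1.23. The Nr1d1 call did not survive the loss of control library 1 or of MTX+nitrate library 2, 3 or 5 (adjusted p up to 0.0695). That of Per3 held only without control library 2, 4 or 5 (up to 0.0966). Thra overlaps Nr1d1 on the opposite strand and Camta1 overlaps Per3, and how reads of such pairs were divided depends on the counting settings. The median log2 fold change of the core clock list was 0.11, and -0.05 with limma-voom.

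Among clock outputs, the transcription factor gene Dbp (ENSMUSG00000059824, chr7:45705088-45710203) was at 84.5, 5.73, 11.0, 30.9 and 6.35 CPM in control and at 1.21, 0.689, 0.737, 0.165 and 0.339 CPM in MTX+nitrate. Controls differed widely among themselves, yet each lay above every MTX+nitrate library (43.3-fold lower, log2 -5.44 ± 0.93, adjusted p = 0.00832, lost with limma-voom at 0.0929). The level in MTX alone was 1.33 ± 2.09 CPM, and Sphk2 overlaps the gene. Its relative Tef (ENSMUSG00000022389, chr15:81802421-81826863) went from 91.7 ± 51.8 CPM to 32.6 ± 4.91 CPM (2.81-fold lower, adjusted p = 0.0372), a call that held in 8 of 19 alternatives and, of those leaving out 1 library, only without control library 2 (adjusted p up to 0.107). Nfil3, the repressor that competes with DBP for D-boxes, rose from 24.8 ± 7.44 CPM to 50.8 ± 10.2 CPM (2.05-fold, adjusted p = 0.0206), beside 69.3 ± 15.9 CPM in MTX alone. The Nfil3 call was lost with a block for replicate number, alone or with the length and GC offsets (adjusted p up to 0.0833). Alas1, the first enzyme of haem synthesis, rose from 43.3 ± 24.6 CPM to 211 ± 91.5 CPM (4.87-fold, adjusted p = 0.0232), beside 154 ± 112 CPM in MTX alone. It was no longer called without control library 3 or 5 or MTX+nitrate library 2 (up to 0.0552). Insig2, which holds the sterol sensor SCAP in the endoplasmic reticulum, fell from 574 ± 40.9 CPM to 376 ± 55.8 CPM (1.53-fold, adjusted p = 0.00885). Every library of the lower group lay below every library of the higher one for Tef, Nfil3, Alas1 and Insig2. The median log2 fold change of the output list was -0.06, and 0.12 without control library 1.

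**Figure D2:**
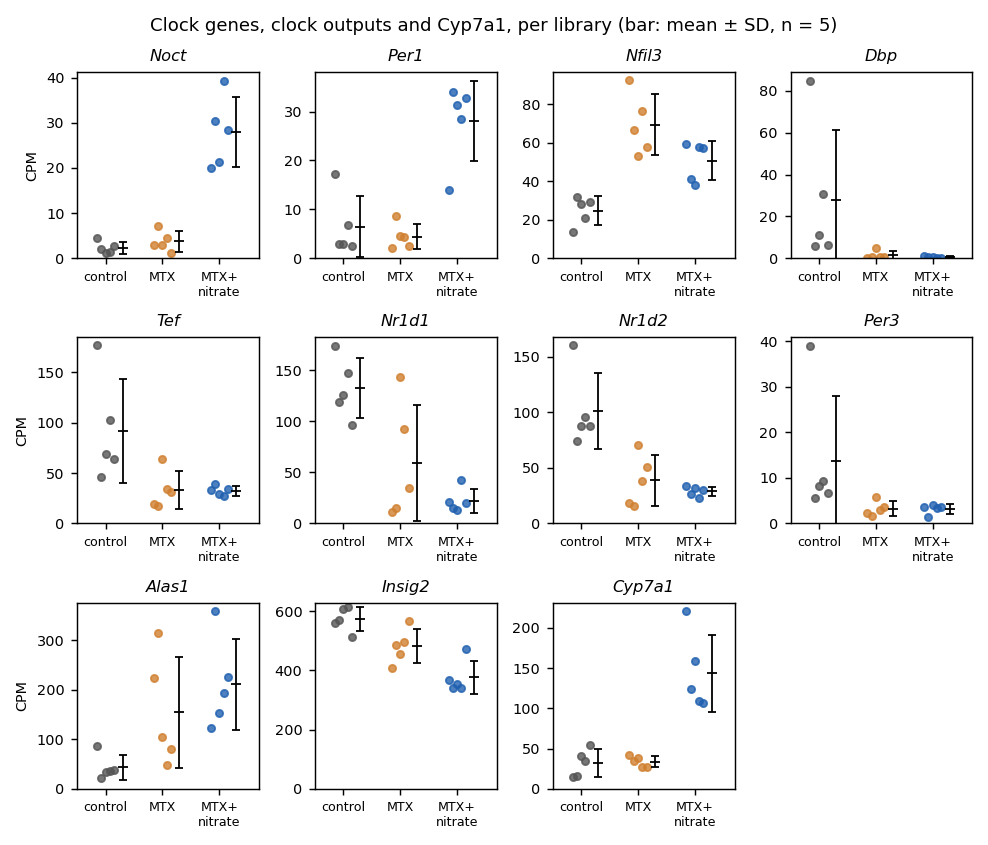
CPM per library (points) with mean ± SD (bars, n = 5; lower bars are drawn down to 0 at most) for 10 clock and clock output genes and Cyp7a1 in control, MTX and MTX+nitrate livers. Noct, Per1 and Cyp7a1 had their highest means in MTX+nitrate livers, whereas Dbp, Tef and Nr1d2 were low in both MTX groups and Nr1d1 was low in all MTX+nitrate libraries and in part of the MTX libraries.

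The list of glucocorticoid-induced genes, which also holds the receptor gene Nr3c1, had the highest median. Of 17 tested, 8 were higher and 1 lower (52.9% against 2.41% of all genes), with a median log2 fold change of 0.89 against 0.01. The 8 were Sgk1, Tsc22d3, Tat, Lcn2, Cdkn1a, Ddit4, Errfi1 and Per1. The 1 lower gene was Nr3c1, which is not read here as an induced gene. Members were chosen with earlier results of these data known, and Tat, Lcn2, Cdkn1a and Per1 are also counted on other lists. With the length and GC offsets 7 were higher and 1 lower. The consensus of a full glucocorticoid response element, AGAACA, any 3 bases and TGTTC, stood in 10 of 32851 promoter windows (0.0304%). Counted per gene over all its starts, an unlike measure, it stood in 1 of the 8 higher genes, Sgk1. Its window (1 of 6 starts, + strand, chr10:21993640-21993889, GRCm38.p6) is shown because this match is so rare; capitals mark the overlapping matches on both strands.
Sgk1: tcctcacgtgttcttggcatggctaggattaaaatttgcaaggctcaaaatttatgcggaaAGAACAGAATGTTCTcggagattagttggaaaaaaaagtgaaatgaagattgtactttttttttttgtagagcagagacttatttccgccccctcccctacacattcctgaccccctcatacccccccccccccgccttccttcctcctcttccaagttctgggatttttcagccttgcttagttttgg

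Sgk1, encoding a kinase that regulates ion transport (ENSMUSG00000019970, chr10:21882184-21999903), was at 10.8, 14.0, 15.6, 17.5 and 17.3 CPM in control and at 44.5, 47.2, 31.4, 45.2 and 41.0 CPM in MTX+nitrate. The groups were far apart and each was tight. The rise was 2.79-fold (log2 1.48 ± 0.16, adjusted p = 0.000309), and MTX alone stood at 13.7 ± 2.93 CPM, below MTX+nitrate (adjusted p = 9.87e-05). Tsc22d3, which encodes the anti-inflammatory protein GILZ (ENSMUSG00000031431, chrX:140539528-140600659), was at 38.5, 48.8, 28.5, 37.6 and 51.0 CPM in control and 171, 147, 153, 174 and 232 CPM in MTX+nitrate. It rose 4.28-fold without overlap (log2 2.10 ± 0.24, adjusted p = 0.000418), and MTX alone lay between them at 86.5 ± 34.4 CPM (MTX+nitrate against MTX, adjusted p = 0.0278). Tat, the tyrosine aminotransferase of amino acid breakdown (ENSMUSG00000001670, chr8:109990437-109999803), was at 615, 608, 347, 387 and 755 CPM in control and 1682, 1741, 1357, 2809.9 and 2664 CPM in MTX+nitrate. Every MTX+nitrate library was above every control (3.78-fold higher, log2 1.92 ± 0.28, adjusted p = 0.00283). MTX alone stood at 1163 ± 421 CPM, and the difference from it did not pass (adjusted p = 0.0901).

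Cdkn1a, encoding the cell cycle inhibitor p21 (ENSMUSG00000023067, chr17:29090976-29100727), was at 1.51, 16.2, 7.54, 8.83 and 2.40 CPM in control and 59.6, 71.7, 37.6, 62.0 and 78.0 CPM in MTX+nitrate. Even the lowest MTX+nitrate library exceeded the highest control (8.44-fold higher, log2 3.08 ± 0.51, adjusted p = 0.00669). In MTX alone Cdkn1a was at 25.9 ± 13.2 CPM. Ddit4, an inhibitor of mTOR signalling, rose from 4.03 ± 1.32 CPM to 20.1 ± 11.9 CPM (4.99-fold, adjusted p = 0.00703). Errfi1, a feedback inhibitor of the EGF receptor, rose from 616 ± 218 CPM to 1436 ± 142 CPM (2.33-fold, adjusted p = 0.022), and its call was lost without control library 3 (adjusted p = 0.0527). The receptor gene Nr3c1 itself fell from 156 ± 18.3 CPM to 114 ± 13.3 CPM (1.37-fold, adjusted p = 0.0372), and in MTX alone it was at 112 ± 14.5 CPM. The Nr3c1 call held only without control library 3 or MTX+nitrate library 1 or 3 (adjusted p up to 0.107). Errfi1 and Nr3c1 were named after their values were seen.

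Glucose and fasting genes overlap with the hormone-induced ones. Of 20 tested, 4 were higher (Tat, Sik1, G6pc and Irs1) and 1 lower (Creb3l3), 25% against 2.41% of all genes, and the median log2 fold change was 0.17. Sik1, a kinase gene induced by cyclic AMP (ENSMUSG00000024042, chr17:31844248-31855792), was at 10.1, 12.6, 8.82, 10.5 and 12.2 CPM in control and 139, 60.6, 27.6, 47.8 and 27.3 CPM in MTX+nitrate. The controls lay close together, while the MTX+nitrate libraries spread widely above them (5.58-fold higher, log2 2.48 ± 0.40, adjusted p = 0.0053; against 15.9 ± 6.16 CPM in MTX alone, adjusted p = 0.0191). G6pc, the glucose-6-phosphatase that releases glucose (ENSMUSG00000078650, chr11:101367561-101377903), was at 343, 379, 369.5, 368 and 735 CPM in control and 1512, 943, 1097, 819.8 and 1209 CPM in MTX+nitrate. Control library 5 was high but still below the lowest MTX+nitrate library (2.54-fold higher, adjusted p = 0.0267). G6pc was not called without control library 1, 3 or 4 or MTX+nitrate library 5 (adjusted p up to 0.0781), and MTX alone stood at 608 ± 276 CPM. Creb3l3, a liver transcription factor of the fasting response, fell from 329 ± 43.4 CPM to 235 ± 18.7 CPM (1.40-fold, adjusted p = 0.0256), lost without control library 1 or 3 or MTX+nitrate library 3 (up to 0.0627). The insulin receptor substrate gene Irs1, named after its values were seen, rose from 15.5 ± 2.86 CPM to 26.4 ± 5.75 CPM (1.70-fold, adjusted p = 0.0321), held only without control library 5 or MTX+nitrate library 1, 3 or 5 (up to 0.112). Slc25a25, a mitochondrial ATP-magnesium carrier (ENSMUSG00000026819, chr2:32414487-32451445), was at 92.7, 58.5, 50.6, 65.7 and 197 CPM in control and 757, 604, 388, 432 and 325 CPM in MTX+nitrate. It rose 5.40-fold without overlap (log2 2.43 ± 0.48, adjusted p = 0.0186).

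**Figure D3:**
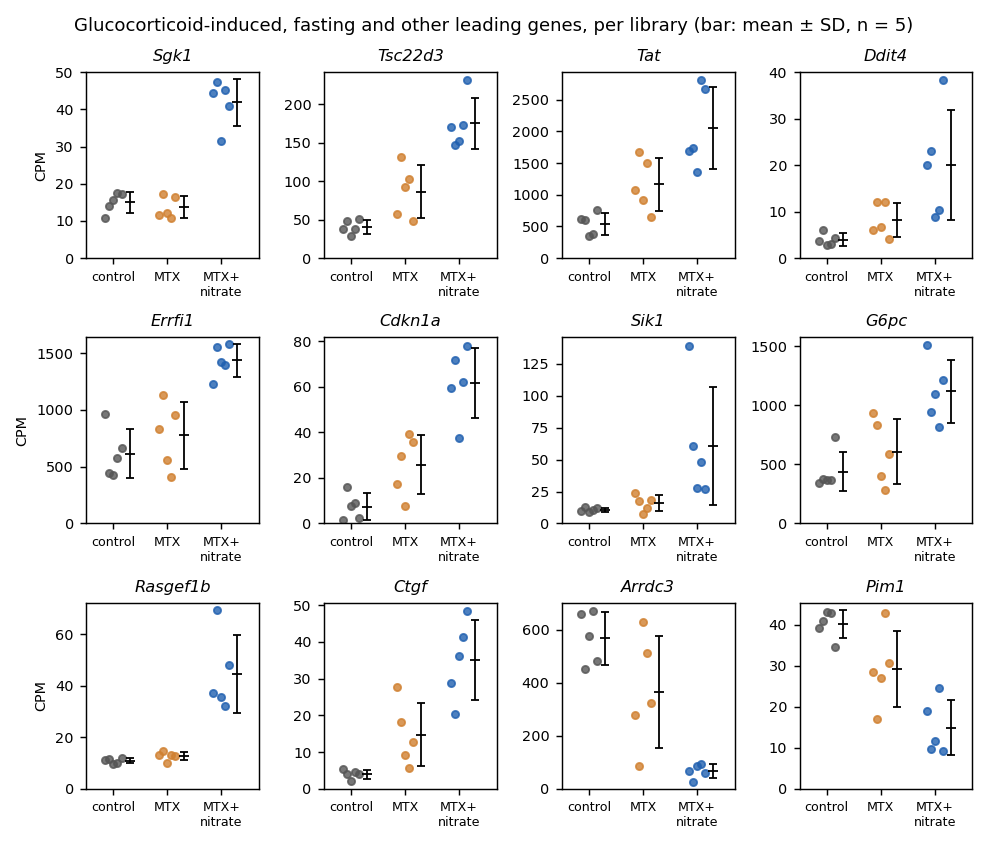
CPM per library (points) with mean ± SD (bars, n = 5) for glucocorticoid-induced genes, 2 fasting genes (Sik1 and G6pc) and 4 other leading genes in control, MTX and MTX+nitrate livers. Sgk1, Rasgef1b and Sik1 were close to control in MTX and high in MTX+nitrate, Tsc22d3, Tat, Cdkn1a and Ctgf had MTX means between the other 2 groups, and Arrdc3 and Pim1 were lowest in MTX+nitrate.

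Some acute phase genes were above control in MTX+nitrate livers. Of 28 tested, 6 were higher and none lower (21.4% against 2.41%), with a median log2 fold change of 0.32. They were Saa1, Saa2, Saa3, Orm2, Lcn2 and Hp. Saa1, a serum amyloid A gene (ENSMUSG00000074115, chr7:46740497-46742980), was at 21.0, 49.6, 28.9, 17.6 and 38.3 CPM in control and 316, 375, 767, 416 and 324 CPM in MTX+nitrate. MTX+nitrate library 3 was the highest and no library overlapped with control (14.1-fold higher, log2 3.82 ± 0.48, adjusted p = 0.000865). MTX alone was at 911 ± 655 CPM, and its difference from MTX+nitrate did not pass (adjusted p = 0.162). Saa2 (ENSMUSG00000057465, chr7:46751790-46754313) was at 7.67, 10.9, 5.66, 3.94 and 7.07 CPM in control and 136, 109.6, 372, 254 and 103 CPM in MTX+nitrate, without overlap (27.7-fold higher, log2 4.79 ± 0.64, adjusted p = 0.00119). Saa1 and Saa2 are near-identical, and reads of either may have been assigned to the other.

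Lcn2, encoding the siderophore-binding lipocalin 2 (ENSMUSG00000026822, chr2:32384633-32388252), was at 5.84, 9.18, 7.99, 7.31 and 9.29 CPM in control and 43.6, 44.8, 126, 106 and 33.8 CPM in MTX+nitrate. It rose 8.95-fold over control with no overlap (log2 3.16 ± 0.48, adjusted p = 0.00331). In MTX alone it stood at 229.9 ± 151 CPM, above MTX+nitrate (adjusted p = 0.0393), a difference lost with the offsets (adjusted p = 0.0549). Haptoglobin (Hp, ENSMUSG00000031722, chr8:109575128-109579172), which binds free haemoglobin, was at 1644, 1886, 2322, 2245 and 2395 CPM in control and 3103, 3773, 4244, 3947 and 3034 CPM in MTX+nitrate, again without overlap (1.73-fold higher, log2 0.79 ± 0.16, adjusted p = 0.0206). Hp was at 5682 ± 1419 CPM in MTX alone, above MTX+nitrate (adjusted p = 0.0319), and its call against control was lost without control library 1 (adjusted p = 0.0627). A block for replicate number, alone or with the offsets, also ended the Hp call against control (adjusted p up to 0.105). Orm2, an orosomucoid that binds drugs in plasma, rose from 4.79 ± 1.69 CPM to 32.5 ± 12.0 CPM (6.80-fold, adjusted p = 0.0026), beside 49.2 ± 32.0 CPM in MTX alone. Saa3 (ENSMUSG00000040026, chr7:46711998-46715700) was at 2.32, 2.06, 2.33, 2.26 and 2.16 CPM in control and 7.03, 8.16, 27.9, 3.74 and 3.10 CPM in MTX+nitrate. Its size rested on MTX+nitrate library 3, without which its log2 change went from 2.17 to 1.31, and its call (adjusted p = 0.0497) held in 4 of 19 alternatives, not with the length and GC offsets, and of those that left out 1 library only without MTX+nitrate library 5 (up to 0.214). Saa1, Saa2, Orm2 and Lcn2 stayed called in all 19 alternatives.

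**Figure D4:**
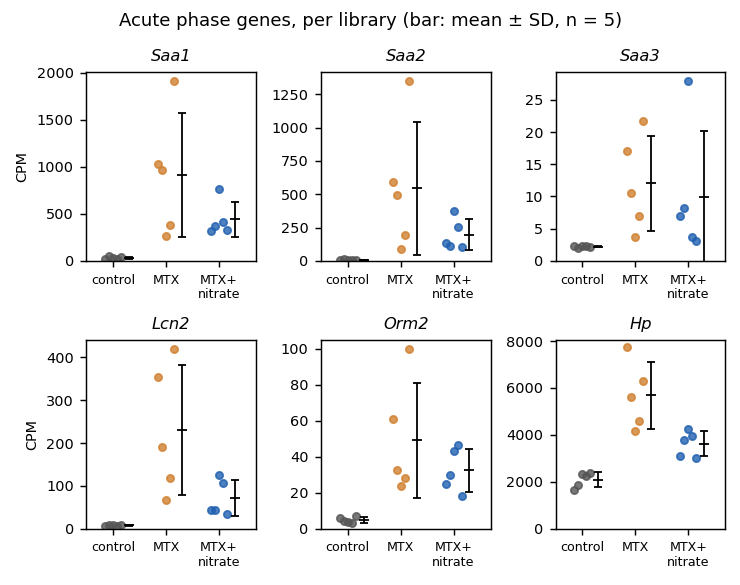
CPM per library (points) with mean ± SD (bars, n = 5) for the 6 acute phase genes called higher in MTX+nitrate than in control, with MTX livers beside them. MTX+nitrate libraries lay above the controls for each gene, and the means of MTX livers were higher still.

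Other inflammatory lists had few or no calls. Such counts, here and below, stand beside 2.41% of all genes called by edgeR and 17.6% with an unadjusted p under 0.05. Of 14219 genes, DESeq2 called 752 and limma-voom 342. Lists of this size can hold no call at such shares, so 0 calls alone say little about a pathway. By edgeR, 0 of 24 NF-κB and cytokine genes were called, with 4 at an unadjusted p under 0.05, 3 by DESeq2 and 0 by limma-voom. The cytokine gene Il1b was at 1.10 ± 0.453 CPM in control and 3.18 ± 1.26 CPM in MTX+nitrate (adjusted p = 0.0784), and the interleukin 6 receptor gene Il6ra at 60.1 ± 9.18 CPM in control and 104 ± 28.8 CPM in MTX+nitrate (adjusted p = 0.0846). Of 30 interferon-stimulated genes 0 were called, with 2 at an unadjusted p under 0.05 and 0 by DESeq2 or limma-voom. Of 37 complement and coagulation genes 0 were called, with 8 at an unadjusted p under 0.05 and 0 by the other tools, and C4b of the complement cascade was at 2016 ± 158 CPM in control and 2650.5 ± 384 CPM in MTX+nitrate (adjusted p = 0.108). Prtn3, a neutrophil protease gene, rose from 0.737 ± 0.267 CPM to 4.11 ± 2.12 CPM (5.50-fold, adjusted p = 0.0364), but Plppr3 overlaps it and its call was lost with the length and GC offsets and held only without MTX+nitrate library 3 (adjusted p up to 0.191). Neutrophil markers summed to 3.92 to 10.7 CPM in control and 3.59 to 7.87 CPM in MTX+nitrate, and their part in the Prtn3 result was not tested.

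Of 20 bile acid synthesis and transport genes, 1 was higher, Cyp7a1, and none was lower (5% against 2.41% of all genes). Their median log2 fold change was 0.02, and -0.02 with the length and GC offsets. Cyp7a1 encodes the rate-limiting enzyme of the classic pathway from cholesterol to bile acids (ENSMUSG00000028240, chr4:6265612-6275633). It was at 14.2, 16.1, 41.2, 35.1 and 54.7 CPM in control and 221, 124, 158, 109 and 107 CPM in MTX+nitrate. The lowest MTX+nitrate library was above the highest control, and the rise was 4.46-fold (log2 2.16 ± 0.32, adjusted p = 0.00294). With MTX alone the level stayed at 33.6 ± 6.68 CPM, below MTX+nitrate (adjusted p = 0.00579). Of 25 cholesterol synthesis genes, 4 were higher and none lower (16% against 2.41%), and 24 had a log2 fold change above 0, with a median of 0.61. Mvk, encoding mevalonate kinase, was at 18.2, 25.7, 16.3, 24.8 and 22.0 CPM in control and 30.4, 32.8, 30.0, 53.3 and 36.8 CPM in MTX+nitrate (1.71-fold higher, adjusted p = 0.0372). The thiolase Acat2 rose 1.57-fold (adjusted p = 0.0449) and the last-step reductase Dhcr7 1.70-fold (adjusted p = 0.0484). MTX alone stood at 39.1 ± 8.73 CPM for Mvk, 109 ± 13.2 CPM for Acat2 and 183 ± 27.9 CPM for Dhcr7. These 3 calls were made without control library 2 or MTX+nitrate library 3. None of them was made without control library 1, 3, 4 or 5 or MTX+nitrate library 4 or 5. The length and GC offsets also ended them, and over all settings their adjusted p reached 0.099, 0.118 and 0.14. DESeq2 called 9 of the list, and over the 10 fits leaving out 1 library the list had 0 to 9 calls.

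Few genes of lipid storage and oxidation were called. Of 29 fatty acid oxidation and ketogenesis genes, 2 were lower and none higher (6.9% against 2.41% of all genes, median log2 fold change -0.14). Plin2, the coat protein of hepatocyte lipid droplets (ENSMUSG00000028494, chr4:86648386-86670060), was at 402, 388, 614, 538 and 329 CPM in control and 288, 219, 169.8, 237 and 201 CPM in MTX+nitrate. All MTX+nitrate libraries were below all controls (2.04-fold lower, log2 -1.03 ± 0.24, adjusted p = 0.0356), with MTX alone at 373 ± 159 CPM. Cpt1a, which admits fatty acids to mitochondria, fell from 492 ± 88.0 CPM to 287 ± 60.8 CPM (1.71-fold, adjusted p = 0.043), also without overlap. The Plin2 call held only without control library 2 or 5 or MTX+nitrate library 1 (adjusted p up to 0.0789), and that of Cpt1a only without control library 2 or MTX+nitrate library 1 (up to 0.106). Of 28 apolipoprotein and lipoprotein genes 1 was higher (3.57%), the lipoprotein lipase gene Lpl. It went from 178 ± 23.7 CPM to 268 ± 55.1 CPM (log2 0.59 ± 0.14, adjusted p = 0.0426), a call held only without MTX+nitrate library 4 (up to 0.103). Of 21 lipogenesis genes 0 were called by edgeR, DESeq2 or limma-voom, with 8 at an unadjusted p under 0.05. Mid1ip1, an activator of acetyl-CoA carboxylase, was at 25.6 ± 8.39 CPM in control and 47.7 ± 17.8 CPM in MTX+nitrate (adjusted p = 0.112). Lpin1, a phosphatidate phosphatase gene, was at 116 ± 57.6 CPM in control and 304 ± 209 CPM in MTX+nitrate (adjusted p = 0.142).

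Genes of the pathways that MTX acts on gave no calls. With 2.41% of all genes called, lists of this size can hold none, so this says little about the pathways. Over all genes tested, 17.6% had an unadjusted p under 0.05, and DESeq2 called 752 of 14219. Of 34 genes of folate and MTX handling, 0 were called by edgeR, with 10 at an unadjusted p under 0.05, 2 by DESeq2 and 0 by limma-voom (median log2 fold change 0.06). Thymidylate synthase (Tyms) was at 5.11 ± 1.33 CPM in control and 5.07 ± 0.659 CPM in MTX+nitrate (adjusted p = 0.984), beside 7.17 ± 1.46 CPM in MTX alone. The lowest p-values belonged to Bhmt2 and Bhmt, which remethylate homocysteine. Bhmt2 was at 233 ± 17.6 CPM in control and 292 ± 35.1 CPM in MTX+nitrate (adjusted p = 0.0978), and its groups did not overlap. Bhmt was at 2249.9 ± 512 CPM in control and 3013 ± 406 CPM in MTX+nitrate (adjusted p = 0.109). Of 35 purine and pyrimidine synthesis genes 0 were called by edgeR, DESeq2 or limma-voom, with 5 at an unadjusted p under 0.05. The lowest p-values were those of the CTP synthase gene Ctps2 (11.5 ± 1.44 CPM in control and 14.6 ± 1.68 CPM in MTX+nitrate, adjusted p = 0.149) and the purine nucleoside phosphorylase gene Pnp (41.8 ± 3.78 CPM in control and 49.4 ± 3.99 CPM in MTX+nitrate, adjusted p = 0.218).

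Among 26 targets of p53, the transcription factor activated by DNA damage, 2 were higher and none lower (7.69% against 2.41% of all genes, median log2 fold change 0.27). They were Cdkn1a, described with the hormone-induced genes, and Trp53inp1, a proapoptotic stress gene at 71.2, 104, 58.2, 79.0 and 74.1 CPM in control and 191, 110.5, 108, 114 and 144 CPM in MTX+nitrate. Trp53inp1 rose 1.73-fold without overlap (log2 0.79 ± 0.17, adjusted p = 0.0267), and MTX alone was at 78.5 ± 11.6 CPM, below MTX+nitrate (adjusted p = 0.025). Against control it was not called without control library 1, 3, 4 or 5 or MTX+nitrate library 5 (adjusted p up to 0.0757). The p53 inhibitor gene Mdm2 was at 26.8 ± 1.56 CPM in control and 33.3 ± 5.48 CPM in MTX+nitrate (adjusted p = 0.121). Of 25 cell cycle genes 0 were called by edgeR, DESeq2 or limma-voom, with 4 at an unadjusted p under 0.05, and the replication enzyme gene Top2a was at 2.95 ± 1.38 CPM in control and 1.53 ± 0.545 CPM in MTX+nitrate (adjusted p = 0.132).

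Stress genes of the endoplasmic reticulum fell in part. Of 22 unfolded protein response genes 3 fell and none rose (13.6% against 2.41% of all genes). Of the 22, 4 had a log2 fold change above 0 (median -0.37). Creld2, an endoplasmic reticulum stress gene (ENSMUSG00000023272, chr15:88819646-88826683), was at 117, 113, 97.8, 50.0 and 63.1 CPM in control and 17.5, 19.6, 20.7, 57.9 and 33.8 CPM in MTX+nitrate. MTX+nitrate library 4 lay within the control range and the other 4 below it (2.95-fold lower, log2 -1.56 ± 0.36, adjusted p = 0.0363). The glucose-regulated chaperone gene Hsp90b1 was at 1102, 1047, 922, 632 and 905 CPM in control and 481, 507, 533, 721 and 632 CPM in MTX+nitrate (1.60-fold, adjusted p = 0.0364). Dnajc3, a co-chaperone that inhibits the kinase PERK, fell from 365 ± 67.1 CPM to 239 ± 50.2 CPM (1.53-fold, adjusted p = 0.0449). For all 3 genes control library 4 was the lowest control and MTX+nitrate library 4 the highest of its group, and their calls held only without 1 of these 2 libraries (adjusted p up to 0.0964, 0.184 and 0.202). With the offsets Creld2 and 1 other gene of the list were called lower, and Hsp90b1 and Dnajc3 were not. Of 23 genes of the ATF4 response, an amino acid and stress programme, 1 was higher (4.35%), Atf4 itself. It went from 59.7 ± 4.23 CPM to 84.6 ± 8.90 CPM (1.42-fold, adjusted p = 0.0247). This call was lost with the offsets and without control library 1 or MTX+nitrate library 4 (up to 0.145). Of 20 heat shock genes 0 were called by edgeR, with 6 at an unadjusted p under 0.05, 4 by DESeq2 and 0 by limma-voom. Dnajb4 was at 23.1 ± 3.34 CPM in control and 34.1 ± 6.69 CPM in MTX+nitrate (adjusted p = 0.0515), and the inducible Hsp70 gene Hspa1b, which has a near-identical copy, at 8.01 ± 2.09 CPM in control and 18.7 ± 6.91 CPM in MTX+nitrate (adjusted p = 0.0589).

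Few drug metabolism genes were called. Of 30 xenobiotic cytochrome P450 genes 2 were lower (6.67% against 2.41% of all genes), both of the Cyp3a family, whose members share much sequence. Cyp3a25 went from 666 ± 131 CPM to 398 ± 55.5 CPM (1.67-fold, adjusted p = 0.0126) with MTX alone at 566 ± 80.8 CPM (adjusted p = 0.0464 against MTX+nitrate), a difference lost with the offsets (adjusted p = 0.156). Cyp3a59 fell 1.82-fold (adjusted p = 0.0321). Of 39 conjugation and transport genes 1 was higher and 2 lower (7.69%). The higher one was the glutathione transferase gene Gsta3 (1.35-fold, adjusted p = 0.0372). The lower ones were Gstt2 (1.54-fold, adjusted p = 0.0267) and the glucuronosyltransferase gene Ugt2b38 (1.82-fold, adjusted p = 0.0437). The Cyp3a59 and Ugt2b38 calls were lost with the length and GC offsets. Over 10 fits leaving out 1 library, that of Cyp3a59 held only without control library 2 or 3 or MTX+nitrate library 1 (adjusted p up to 0.153), and that of Ugt2b38 only without control library 2 or MTX+nitrate library 1 (up to 0.159). Those of Gsta3 (up to 0.099) and Gstt2 (up to 0.0833) held in 3 and 5 of these fits, without control library 2 or 5 or MTX+nitrate library 1 for Gsta3 and without control library 2, 3 or 4 or MTX+nitrate library 1 or 2 for Gstt2.

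Of 23 targets of NRF2, the oxidant-responsive transcription factor, 1 was called (4.35% against 2.41% of all genes). This was Osgin1, an oxidative stress growth inhibitor, and it was lower. It was at 366, 603, 518, 562 and 507 CPM in control and 313, 259, 269, 333 and 253 CPM in MTX+nitrate, without overlap (1.79-fold lower, log2 -0.84 ± 0.17, adjusted p = 0.0206). MTX alone was at 483 ± 134 CPM, above MTX+nitrate (adjusted p = 0.025), and the call against control was lost without MTX+nitrate library 2 or 5 (adjusted p up to 0.051). Of 17 oxidant defence genes 0 were called by edgeR, DESeq2 or limma-voom, with 1 at an unadjusted p under 0.05. Glutathione peroxidase 1 (Gpx1) was at 1563 ± 81.4 CPM in control and 1355 ± 181 CPM in MTX+nitrate (adjusted p = 0.274), and at 1805 ± 163 CPM in MTX alone, above MTX+nitrate (adjusted p = 0.0297). Among 13 carboxylesterases 1 was higher and 1 lower (15.4%). Ces1d, a lipase and drug esterase, rose from 479 ± 78.4 CPM to 712 ± 18.3 CPM (1.49-fold, adjusted p = 0.011). Ces2c fell from 13.9 ± 5.64 CPM to 6.42 ± 2.61 CPM (2.17-fold, adjusted p = 0.0436), lost with the offsets and held only without control library 4 or MTX+nitrate library 4 (up to 0.12).

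Of 30 matrix and fibrosis genes 2 were higher, Ctgf and Thbs1, and none lower (6.67% against 2.41% of all genes, median log2 fold change 0.16). Ctgf, encoding connective tissue growth factor (ENSMUSG00000019997, chr10:24595442-24598683), was at 5.30, 4.06, 2.00, 4.47 and 4.07 CPM in control and 28.8, 20.3, 36.3, 41.2 and 48.4 CPM in MTX+nitrate. The groups lay far apart (8.77-fold higher, log2 3.13 ± 0.37, adjusted p = 0.000493). MTX alone lay between them at 14.7 ± 8.61 CPM (adjusted p = 0.0462 against MTX+nitrate), a difference lost with the offsets (adjusted p = 0.0604). Thbs1, which encodes the TGF-β activator thrombospondin 1, rose from 2.24 ± 0.708 CPM to 9.10 ± 4.56 CPM (4.06-fold, adjusted p = 0.0437), beside 21.2 ± 15.5 CPM in MTX alone, and its call was lost with the length and GC offsets and held only without MTX+nitrate library 1 (adjusted p up to 0.198). Smad7, an inhibitor of TGF-β and BMP signalling (ENSMUSG00000025880, chr18:75367529-75395935), was at 12.5, 12.9, 9.54, 12.7 and 12.8 CPM in control and 35.0, 27.4, 33.4, 25.1 and 16.2 CPM in MTX+nitrate. It rose 2.27-fold without overlap (log2 1.18 ± 0.21, adjusted p = 0.00885), and MTX alone, at 13.9 ± 4.23 CPM, was below MTX+nitrate (adjusted p = 0.022). Smad7 and Alas1 were the 2 genes called of 29 iron and haem genes (6.9%). Of 22 immediate early genes, which growth factors switch on within minutes, 1 was higher (4.55%), although the list had a median of 0.44. This was the endothelial transcription factor gene Klf2 (4.27 ± 1.57 CPM to 10.3 ± 3.24 CPM, 2.40-fold, adjusted p = 0.0199). The Klf2 call was lost with the length and GC offsets and without control library 1 (up to 0.114), and the summed level of sinusoidal endothelial markers ran from 590.1 to 819.7 CPM in control and from 658 to 974 CPM in MTX+nitrate. Its part in the Klf2 result was not tested. Of 8 metallothionein and zinc genes 0 were called by any of the 3 tools, and 0 had an unadjusted p under 0.05.

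Wnt signalling, which sets the division of labour between hepatocytes near the central vein and those near the portal vein, gave no calls. Lists of this size can hold none where 2.41% of all genes are called and 17.6% have an unadjusted p under 0.05. Of 34 Wnt components and 16 Wnt/β-catenin targets 0 were called by edgeR, with 7 and 2 at an unadjusted p under 0.05, 2 and 2 by DESeq2 and 0 and 0 by limma-voom. Axin2, a feedback target, was at 6.05, 8.24, 5.82, 10.7 and 14.1 CPM in control and 12.4, 9.81, 10.5, 9.24 and 6.09 CPM in MTX+nitrate. The groups overlapped and their means were close (log2 0.10 ± 0.25, adjusted p = 0.884), while MTX alone stood at 5.38 ± 1.29 CPM (adjusted p = 0.0676 against MTX+nitrate). The receptor gene Fzd6 was at 11.0 ± 2.18 CPM in control and 8.77 ± 2.59 CPM in MTX+nitrate (adjusted p = 0.461), and at 4.29 ± 1.22 CPM in MTX alone, below MTX+nitrate (adjusted p = 0.0245). The Wnt enhancer gene Rspo1 was at 1.62 ± 1.27 CPM in control and 1.17 ± 0.986 CPM in MTX+nitrate (adjusted p = 0.784), and at 0.0612 ± 0.061 CPM in MTX alone, again below MTX+nitrate (adjusted p = 0.0312). β-catenin (Ctnnb1) was at 242 ± 16.0 CPM in control and 251 ± 4.98 CPM in MTX+nitrate (adjusted p = 0.739). The lowest p-values of the 2 lists were those of the nuclear cofactor Pygo2 (adjusted p = 0.0708), the signal transducer Dvl3 (adjusted p = 0.079) and the secreted inhibitor Notum (adjusted p = 0.0811). Notum was at 21.3 ± 3.08 CPM in control and 30.3 ± 6.63 CPM in MTX+nitrate, and Lgr5, a receptor for R-spondins, was at 3.59 ± 1.18 CPM in control and 4.15 ± 1.68 CPM in MTX+nitrate (adjusted p = 0.775).

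Of 25 pericentral hepatocyte genes 1 was higher, Ces1d, and 1 lower, Slc1a2 (8% against 2.41% of all genes). Slc1a2, a glutamate transporter of pericentral hepatocytes (ENSMUSG00000005089, chr2:102658659-102790784), was at 102, 46.9, 105, 76.8 and 123 CPM in control and 23.4, 41.6, 45.0, 44.1 and 39.2 CPM in MTX+nitrate, just short of overlap (2.35-fold lower, log2 -1.23 ± 0.22, adjusted p = 0.011). Glutamine synthetase (Glul), confined to the innermost pericentral cells, was at 534 ± 64.1 CPM in control and 438 ± 135 CPM in MTX+nitrate (adjusted p = 0.349). Of 25 periportal and urea cycle genes 0 were called by edgeR, with 6 at an unadjusted p under 0.05, 1 by DESeq2 and 0 by limma-voom. Alanine aminotransferase (Gpt), whose protein is the clinical marker of liver injury in blood, had RNA at 254 ± 21.4 CPM in control and 271 ± 38.4 CPM in MTX+nitrate (adjusted p = 0.724).

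Genes that handle nitrate, nitrite and nitric oxide gave 0 calls of 25 by edgeR, DESeq2 or limma-voom. Of them, 6 had an unadjusted p under 0.05, and the median log2 fold change was 0.12. Over all genes 2.41% were called and 17.6% had an unadjusted p under 0.05, so a list of this size can hold no call. Gucy1a1, a subunit of the soluble guanylate cyclase that senses nitric oxide, was at 11.3 ± 0.902 CPM in control and 15.3 ± 3.04 CPM in MTX+nitrate (adjusted p = 0.111). Pts, an enzyme of tetrahydrobiopterin synthesis, was at 22.8 ± 3.31 CPM in control and 18.2 ± 2.17 CPM in MTX+nitrate (adjusted p = 0.113). Endothelial nitric oxide synthase (Nos3) was at 2.65 ± 0.789 CPM in control and 3.14 ± 0.484 CPM in MTX+nitrate (adjusted p = 0.611), and xanthine dehydrogenase (Xdh), which can reduce nitrite, at 128 ± 16.1 CPM in control and 109 ± 14.8 CPM in MTX+nitrate (adjusted p = 0.29). Differences of the size simulated at 1.5-fold were recovered for 37 of 100 genes and those at 2-fold for 56 of 100, so smaller differences in these lists may have gone uncalled.

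Several genes outside these pathways were higher in MTX+nitrate than in either other group. Rasgef1b, Tcim and Kcnk5 were named by a rule that asked for calls in the same direction against control and against MTX. Both comparisons use the same MTX+nitrate libraries, here and for the other genes, so a p-value against MTX is not separate support. Rasgef1b, a guanine nucleotide exchange factor for Rap proteins (ENSMUSG00000089809, chr5:99217426-99729065), had the lowest p of those named. It was at 11.2, 11.4, 9.70, 9.83 and 11.9 CPM in control and 37.1, 69.2, 35.8, 32.2 and 47.9 CPM in MTX+nitrate. Controls were tight and every MTX+nitrate library stood well above them (4.11-fold higher, log2 2.04 ± 0.18, adjusted p = 3.19e-05). MTX alone was near control at 12.8 ± 1.68 CPM (adjusted p = 9.87e-05 against MTX+nitrate). Tcim, a small transcriptional regulator, was at 7.24, 11.9, 3.88, 7.47 and 6.77 CPM in control and 27.6, 14.2, 22.2, 24.0 and 31.5 CPM in MTX+nitrate (3.20-fold, adjusted p = 0.00394), against 8.21 ± 2.11 CPM in MTX (adjusted p = 0.00897). The potassium channel gene Kcnk5 was at 22.3, 15.6, 13.9, 15.7 and 20.3 CPM in control and 41.7, 65.2, 31.9, 59.5 and 38.1 CPM in MTX+nitrate (2.69-fold, adjusted p = 0.00394), against 18.8 ± 5.40 CPM in MTX (adjusted p = 0.00799). Neither gene had overlapping groups, and Rasgef1b, Tcim and Kcnk5 stayed called against control in all 19 alternatives. The chloride channel family gene Clic3, which Paxx overlaps, rose from 1.79 ± 1.36 CPM to 8.96 ± 3.80 CPM (5.03-fold, adjusted p = 0.0191), but its difference from MTX alone, at 4.30 ± 1.86 CPM, did not pass (adjusted p = 0.16).

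Arrdc3, an arrestin-domain protein that acts on adrenergic receptors and glucose metabolism (ENSMUSG00000074794, chr13:80883384-80896042), fell. It was at 659, 453, 578, 671 and 482 CPM in control and 68.0, 24.3, 85.0, 92.1 and 58.9 CPM in MTX+nitrate. The highest MTX+nitrate library was well below the lowest control (8.66-fold lower, log2 -3.11 ± 0.42, adjusted p = 0.00136). MTX alone was at 365 ± 211 CPM, above MTX+nitrate (adjusted p = 0.00828). Arrdc3 was the 1 gene called of 12 on the arrestin-domain and glucose-sensing list (8.33% against 2.41% of all genes). Pim1, a kinase gene induced by cytokines (ENSMUSG00000024014, chr17:29490812-29496111), was at 39.3, 40.8, 43.2, 42.9 and 34.6 CPM in control and 19.1, 9.75, 11.7, 24.6 and 9.31 CPM in MTX+nitrate. It fell 2.70-fold without overlap (log2 -1.43 ± 0.25, adjusted p = 0.00989), with MTX alone at 29.3 ± 9.26 CPM (adjusted p = 0.0403). Rapgef4, the cyclic AMP sensor EPAC2, fell from 196 ± 45.6 CPM to 94.5 ± 20.2 CPM (2.07-fold, adjusted p = 0.0126; 163 ± 47.8 CPM in MTX, adjusted p = 0.0334). The mitochondrial carrier gene Slc25a34 fell 3.22-fold (adjusted p = 0.0173). Arrdc3, Pim1, Rapgef4 and Slc25a34 stayed called against control in all 19 alternatives.

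Other falls kept their call in 1 or 2 of the 10 fits that left out 1 library. Camk2b, a calcium-dependent kinase gene (ENSMUSG00000057897, chr11:5969644-6066362), was at 20.6, 0.445, 9.37, 27.9 and 17.6 CPM in control and 0.367, 0.159, 0.147, 0.605 and 0.621 CPM in MTX+nitrate. Control library 2 was as low as the MTX+nitrate libraries and the other 4 controls were far above them (log2 -5.32 ± 1.22, adjusted p = 0.0327). The call held in 7 of 19 alternatives, of those leaving out 1 library only without control library 2, and limma-voom gave 0.413. In MTX alone Camk2b was at 16.3 ± 16.9 CPM. Gpcpd1, a glycerophosphocholine phosphodiesterase, went from 165 ± 53.2 CPM to 66.5 ± 27.9 CPM (2.47-fold, adjusted p = 0.0381), held only without control library 2 or MTX+nitrate library 1 (adjusted p up to 0.105). Tissue factor (F3) went from 6.37 ± 1.08 CPM to 3.08 ± 0.975 CPM (2.06-fold, adjusted p = 0.0465), held only without MTX+nitrate library 1 (up to 0.12). The ion channel gene Asic5 went from 12.3 ± 9.08 CPM to 4.80 ± 1.28 CPM (2.55-fold, adjusted p = 0.0485). Control library 3 was at 28.3 CPM and the other controls at 6.45 to 9.62 CPM, and without it the log2 change went from -1.35 to -0.78. Its call held only without control library 2 (up to 0.205). With the length and GC offsets Gpcpd1, F3 and Asic5 were not called.

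Of 31 growth hormone and IGF axis genes 2 were lower (6.45% against 2.41% of all genes). They were the major urinary protein genes Mup11 and Mup3, whose family members are near-identical. Mup3 was at 4720.1, 4292, 4607, 4492 and 5119.5 CPM in control and 3731, 3622, 2940.5, 2471 and 3599 CPM in MTX+nitrate (1.42-fold lower, adjusted p = 0.0247), a difference lost with the length and GC offsets (adjusted p = 0.28) and without control library 1 or 5 or MTX+nitrate library 3. Mup11 went from 8.13 ± 3.60 CPM to 2.17 ± 0.451 CPM (3.75-fold, adjusted p = 0.0206), lost without control library 3 (adjusted p = 0.051). Of 35 splicing and RNA-binding genes 2 were higher (5.71%), Tra2b (1.37-fold, adjusted p = 0.0176) and Srsf7 (1.40-fold, adjusted p = 0.0468). The Srsf7 call was lost in each of the 10 fits that left out 1 library (up to 0.125).

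Mitochondrial transfer RNA genes gave 4 calls of 11 tested, all lower, beside 2.41% of all genes called. The leucine tRNA gene mt-Tl2 was at 5.40, 10.9, 6.77, 5.99 and 7.31 CPM in control and 3.67, 2.97, 3.05, 1.15 and 2.60 CPM in MTX+nitrate, without overlap (2.70-fold lower, adjusted p = 0.0204). The cysteine tRNA gene mt-Tc went from 15.3 ± 1.89 CPM to 5.71 ± 1.46 CPM (2.68-fold, adjusted p = 0.0259) and the tryptophan tRNA gene mt-Tw from 3.74 ± 1.56 CPM to 1.38 ± 0.478 CPM (2.70-fold, adjusted p = 0.043). These genes are short, mt-Tl2 and mt-Tw overlap neighbours, and the 3 calls were lost with the length and GC offsets (adjusted p up to 0.292). The mt-Tc call was also lost without control library 1 or 5 or MTX+nitrate library 4 or 5, and that of mt-Tw held only without MTX+nitrate library 1. Of the 13 mitochondrially encoded protein genes 0 were called by any of the 3 tools, with 4 at an unadjusted p under 0.05 and a median log2 fold change of -0.33, which the offsets brought to -0.03. The cytochrome oxidase gene mt-Co1 was at 21530.4 ± 740.4 CPM in control and 18079.5 ± 1924 CPM in MTX+nitrate (adjusted p = 0.149). Of 74 nuclear respiratory chain genes, 83 cytosolic ribosomal protein genes and 34 proteasome genes 0 were called by edgeR, with 5, 3 and 2 at an unadjusted p under 0.05. DESeq2 called 0, 0 and 1 of them and limma-voom none.

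**Figure D5:**
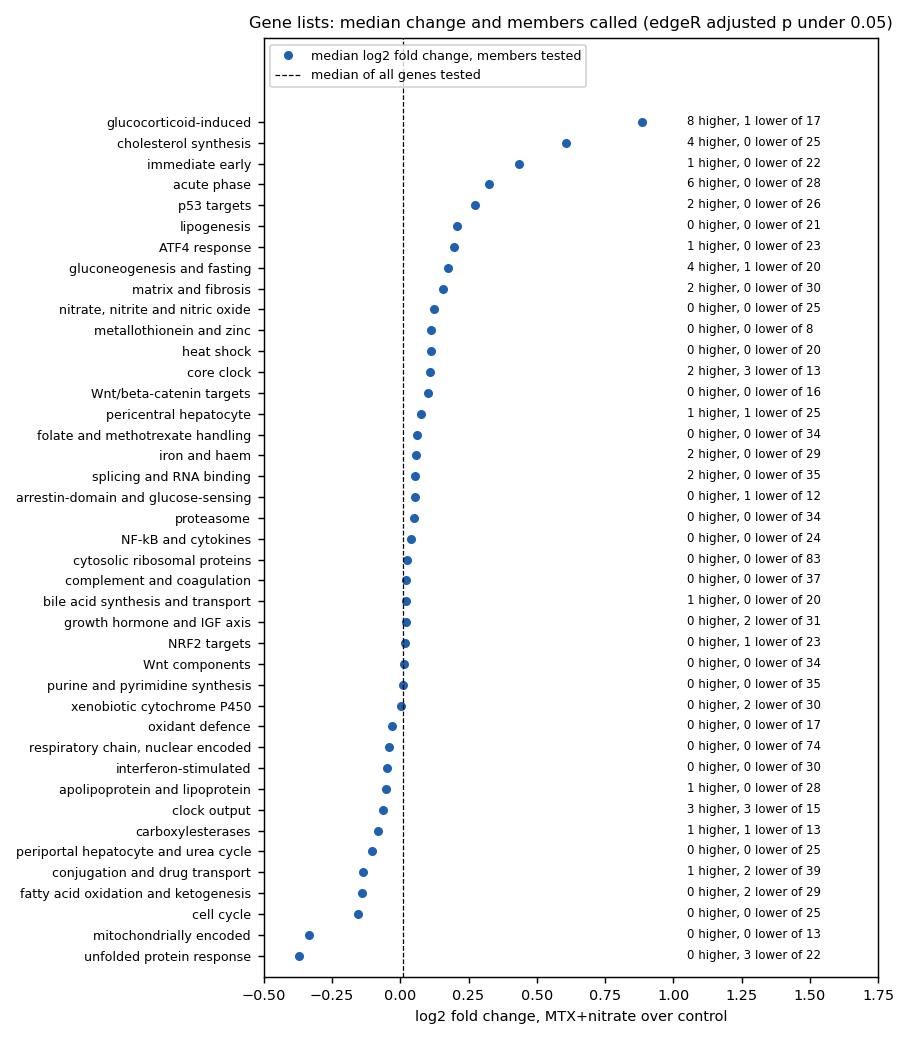
Median log2 fold change, MTX+nitrate over control, of the tested members of each gene list (points, x axis), with the number of members called higher and lower by edgeR written beside each list and the median of all genes tested as a dashed line. Glucocorticoid-induced (0.89) and cholesterol synthesis genes (0.61) stood highest, and unfolded protein response (-0.37) and mitochondrially encoded genes (-0.33) lowest.

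Markers of the cell types that whole liver can hold gave 1 call over 13 lists, the hepatocyte gene Tat, which glucocorticoids induce. The other 12 lists had 86 members tested, of which 0 were called by edgeR, 13 had an unadjusted p under 0.05, and 1 was called by DESeq2 and 0 by limma-voom. Sinusoidal endothelial markers all had a log2 fold change above 0 (17 of 17, median 0.14). Their scavenger receptor gene Stab1 was at 53.7 ± 5.59 CPM in control and 70.4 ± 13.5 CPM in MTX+nitrate (adjusted p = 0.113), with MTX alone at 49.7 ± 6.21 CPM, below MTX+nitrate (adjusted p = 0.0388), a difference that the offsets ended and brought from a log2 of 0.50 to 0.23 (adjusted p = 0.306). Gpr182, an endothelial chemokine scavenger that Zbtb39 overlaps, was at 22.5 ± 4.04 CPM in control and 34.7 ± 6.06 CPM in MTX+nitrate (adjusted p = 0.0566). Kupffer cell markers summed to 515 to 839 CPM in control and 456 to 789.8 CPM in MTX+nitrate, and their scavenger receptor gene Marco was at 3.03 ± 1.66 CPM in control and 6.58 ± 4.49 CPM in MTX+nitrate (adjusted p = 0.215). Stellate cell markers summed to 786 to 1283 CPM and 789 to 1292 CPM, and cholangiocyte markers to 112 to 149 CPM and 114 to 174 CPM. Monocyte and dendritic markers ran from 31.7 to 46.6 CPM and from 22.9 to 70.8 CPM, T and NK markers from 3.55 to 8.58 CPM and from 5.16 to 7.70 CPM, and B and plasma markers from 9.55 to 15.2 CPM and from 8.02 to 32.1 CPM. Erythroid markers ran from 50.5 to 183.6 CPM in control and from 65.5 to 158 CPM in MTX+nitrate. Adipocyte markers ran from 2.42 to 6.55 CPM and from 2.49 to 5.68 CPM, with Lep and Retn at 0 counts in all 10 libraries. Pancreatic markers ran from 36.2 to 50.9 CPM and from 41.4 to 51.0 CPM, with 6 of 10, the protease genes Prss2, Cpa1 and Cpb1 among them, at 0 counts. Muscle markers ran from 4.80 to 8.60 CPM and from 5.60 to 9.54 CPM, with Acta1 and Myh4 at 0 counts. In each of these pairs the control range comes first, and the ranges overlapped.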

How the data were processed

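Total RNA of mouse liver was sequenced in 15 libraries prepared with a SMARTer mRNA kit, per the labels' protocols. The authors deposited a table of raw read counts per Ensembl gene, on GRCm38 (mm10) per the submitters' processing notes. The sources used here do not name an aligner, a counter, its strand setting or an annotation release. All 15 columns matched a library by label. Library totals in the compared groups were 16663967 to 19274497 counts. The 30 library pairs within groups differed by 21.8 to 59.3 times the sampling variance, so none was treated as a duplicate.

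Genes were kept with filterByExpr, libraries scaled by TMM, and 14219 genes tested with edgeR 4.0.16 (R 4.3.3) in a quasi-likelihood fit over all 15 libraries, leaving 12 residual degrees of freedom. Benjamini-Hochberg adjustment ran over these genes, with calls under 0.05, and a gene's adjusted p comes from this test unless another is named. Log2 values carry standard errors. Library measures were compared by a two-sided exact permutation test over 252 assignments (smallest p = 0.00794). Members, lists and rules were chosen with earlier results of these data known. The rule for named genes took, at 2 CPM or more, the largest fold changes without overlap and the genes also called in the same direction against MTX or in MTX against control, and further the leading members of 41 gene lists and 13 marker lists and 22 fixed genes. Not all genes the rule takes are named, and some are not reported here. On simulated counts (13998 genes tested) 37 of 100 genes changed 1.5-fold and 56 of 100 changed 2-fold were recovered, with 3 false calls.

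Alternatives were DESeq2 1.42.0, limma-voom 3.58.1, median-of-ratios scaling, no expression filter, a floor of 1 CPM in 5 libraries and the 2 groups fitted alone. Further ones were a replicate block, offsets for transcript length and GC content (mgcv 1.9.3, longest GENCODE transcript, 99.9% of genes tested), and block and offsets together. The rest left out each control or MTX+nitrate library in turn, and no MTX library was left out.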

Additional observations from a re-analysis of the deposited data

Results flagged for a closer look

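Of 218 pairs of a named gene and a group, 19 had a library farther from the nearest of the other 4 than 0.71 of the group's whole range, which chance gives in about 1 of 20 groups. No explanation was tested.

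In control, library 1 was the highest for the clock genes Nr1d2 (160 CPM, the others 74.6 to 96.2 CPM) and Per3 (38.9 CPM, the others 5.56 to 9.41 CPM), for Alas1 (85.7 CPM, the others 21.2 to 38.6 CPM) and for Gstt2 (59.1 CPM, the others 43.2 to 45.5 CPM). Control library 5 was the highest for the fasting and hormone genes G6pc (735 CPM, the others 343 to 379 CPM), Irs1 (20.5 CPM, the others 13.4 to 15.2 CPM) and Slc25a25 (197 CPM, the others 50.6 to 92.7 CPM). Control library 3 was the highest for Ces2c (23.5 CPM, the others 8.47 to 12.7 CPM) and Asic5 (28.3 CPM, the others 6.45 to 9.62 CPM) and the lowest for Smad7 (9.54 CPM, the others 12.5 to 12.9 CPM).

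In MTX+nitrate, library 3 was the highest for the acute phase genes Saa1 (767 CPM, the others 316 to 416 CPM) and Saa3 (27.9 CPM, the others 3.10 to 8.16 CPM). Library 4 was the highest for Nr1d1 (42.2 CPM, the others 13.1 to 20.9 CPM) and Clic3 (15.6 CPM, the others 6.13 to 8.38 CPM) and the lowest for Ctps2 (11.7 CPM, the others 14.9 to 16.0 CPM). Library 1 was the lowest for Per1 (13.9 CPM, the others 28.5 to 34.0 CPM) and Slc1a2 (23.4 CPM, the others 39.2 to 45.0 CPM). Library 2 was the lowest for Per3 (1.38 CPM, the others 3.30 to 3.98 CPM), and library 5 the highest for Insig2 (474 CPM, the others 341 to 368 CPM).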

How the results depend on the processing

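The 201 genes called higher and 141 called lower became 396 and 356 with DESeq2, 103 and 113 with the length and GC offsets, 103 and 54 with the replicate block, and 54 and 41 with the block and the offsets together. Leaving out 1 library gave 75 to 181 higher and 24 to 131 lower. Median-of-ratios scaling, limma-voom, either other filter and the fit over 2 groups kept both counts within 1.5 times. Same-numbered libraries of the 2 groups did not deviate together (correlations of -0.194 to 0.0442, with the own number the best match for 0 of 5). These correlations gave no sign of pairing by number. Whether same-numbered libraries share a batch or another factor was not tested. Of 75 named genes called, 26 stayed called under all 19 alternatives and 32 in all 10 fits leaving out 1 library, 30 held in at most 5 of these, and 0 changed direction. Losses with the replicate block are not marked at each gene. The block and the offsets together ended the calls of Smad7, Clic3 and Cyp3a25 against control (adjusted p up to 0.0625, 0.0741 and 0.113).

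Some values that were not called changed sign. The log2 change of Axin2, 0.10, was -0.0554 with the offsets and -0.0245 to 0.3179 when 1 library was left out. That of Gpt, 0.09, was -0.1177 with the offsets and -0.1261 with block and offsets. That of Tyms, -0.01, was 0.0158 with limma-voom, 0.0040 with the block, 0.0140 with block and offsets, and -0.0857 to 0.1332 when 1 library was left out. Leaving out 1 library, the difference (MTX+nitrate minus control) in the share of the 10 most abundant genes, -0.267 percentage points, ran from -0.779 to 0.237, that in genes with a count, 109.8, from -7.65 to 239.9, and that in GC correlation, 0.258, from 0.224 to 0.291.

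The 10 fits leaving out 1 library dropped a control or an MTX+nitrate library, never an MTX library. Those without a control library kept both groups of the comparison with MTX whole. Dependence of that comparison on single MTX libraries was not tested. Within this limit, the calls against MTX alone of Noct, Per1, Sgk1, Tsc22d3, Sik1, Cyp7a1, Smad7, Rasgef1b, Tcim, Kcnk5 and Arrdc3 held in all 10 fits. Those of Trp53inp1 held in 9, of Osgin1, Gpx1, Fzd6 and Rspo1 in 8, of Lcn2, Rapgef4 and Stab1 in 7, of Hp in 6, of Pim1 in 4, of Cyp3a25 in 3 and of Ctgf in 1. The causes of these changes were not tested.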
